A study of Mus musculus with 12 samples.

Results

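The cortex of TLR4-KO mice was compared with that of WT mice, both kept without alcohol, across all miRNA precursors of a small RNA sequencing series. The libraries were chosen by their labels, 3 of TLR4-KO and 3 of WT, which makes 6 of the 12 libraries of the series, and 589 precursors were measured in each. All mice were females on the C57BL/6J background, 7 weeks old at the start and kept for 5 months in cages of 4 animals on a solid diet. WT carried the intact receptor gene and TLR4-KO lacked it on both alleles, and both groups drank plain water. The other 6 libraries, WT + EtOH and TLR4-KO + EtOH, came from mice of the same 2 genotypes. These mice drank water with 10% (v/v) alcohol over the same 5 months. Their libraries also entered the main fit, where the spread behind each SE and p was estimated over all 12 libraries. They serve as well for comparisons of libraries and for the genotype difference under alcohol. For each library RNA from 3 animals was combined, which makes 9 animals in a group, so a spread over libraries is a spread between pools. By the methods, the WT mice came from a commercial breeder and the knockout mice from another laboratory's colony, so genotype and source of the animals cannot be told apart. The libraries hold small RNA and no Tlr4 mRNA, so the genotype was not checked in them.

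TLR4 is the receptor by which microglia and other innate immune cells sense bacterial lipopolysaccharide and signals of tissue damage. It acts through adaptor proteins on NF-kB and interferon regulatory factors, and in the brain it has been studied as a mediator of the inflammation that alcohol causes. A miRNA is a short RNA cut from a hairpin precursor, and it guides Argonaute to mRNAs that pair with its seed, the bases from position 2 to 8. Several miRNAs are induced by TLR signalling or restrain it, among them miR-146a, miR-155, miR-21 and the miR-125 family.

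The deposited value of a precursor is a score without a unit, normalised so that the libraries share their levels. The 14 highest scores were the same in all 12 libraries, with a highest score of 134.8, and many precursors are listed at 0. A score of 0 does not always stand for an absence of reads, and the table does not show where it does. A precursor is called detected below where its score was above 0, and differences and counts that rest on zeros hold for the scores only. A difference between groups is therefore a change of place among the precursors and not a fold change, and a rise of some must be met by a fall of others. The deposited table holds no read totals and no reads can be recovered from the scores, so the depth behind each value is unknown from it. Of the 589 precursors, 265 were at 0 in all 12 libraries, 302 were above 0 in at least 1 of the 6 TLR4-KO and WT libraries, and 197 were above 0 in all 6. mmu-mir-181a-1 stood first in every library. Precursors are named below without the species prefix.

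The WT libraries were the most alike. Over the 190 precursors above 0 in every library, Spearman's rho between WT libraries was 0.984 to 0.988, between WT and the other 9 libraries 0.889 to 0.959 (median 0.947), and among those 9 libraries 0.900 to 0.980 (median 0.946). The medians were close, while the highest rho of a WT library with another group stayed below the highest among the other 9. These values describe libraries across precursors, which are not independent of each other. TLR4-KO replicate 1 was the library with the lowest median rho to the other 11 (0.915). Replicate 1 of WT + EtOH (0.926) and of TLR4-KO + EtOH (0.937) came next. For 40 of the 589 precursors (6.79%) the 3 WT libraries lay outside the range of the other 9 libraries, 23 higher (3.9%) and 17 lower (2.89%), against 4 precursors (0.679%) for TLR4-KO, 4 for WT + EtOH and 4 for TLR4-KO + EtOH. A group whose libraries lie close together meets this rule more easily. Whether the position of WT came from the animals or from the handling of the libraries cannot be told apart.

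TLR4-KO differed from WT in 15 of 589 precursors (2.55%) by limma with Benjamini-Hochberg adjustment over all precursors and a threshold of 0.05. In TLR4-KO 9 rose (1.53%) and 6 fell (1.02%). The precursors that rose were mir-125a, mir-125b-2 and mir-351 of the miR-125 seed family, and mir-744, mir-150, mir-423, mir-346, mir-7224 and mir-1981. Those that fell were mir-451a of red blood cells and mir-451b, whose score equals that of mir-451a in every library. The others were mir-96 of the miR-183 cluster, mir-872, mir-27b and mir-6952. All 15 had TLR4-KO and WT libraries without overlap, as did 92 of all 589 (15.6%), of which 42 were higher (7.13%) and 50 lower (8.49%). An exact permutation test of 3 against 3 libraries cannot give less than 0.1, and it gave 0.1 for each of the 15. At an unadjusted p under 0.05 there were 72 precursors (12.2%), 35 higher (5.94%) and 37 lower (6.28%). With copies of nearly equal scores merged, 14 of 578 were called. In a fit of the 6 libraries alone 13 precursors were called, of which 5 were among the 15 (mir-125b-2, mir-744, mir-423, mir-346 and mir-6952). mir-125a, mir-351, mir-150, mir-7224, mir-1981, mir-451a, mir-451b, mir-96, mir-872 and mir-27b were not called in that fit. Leaving out 1 of the 12 libraries in turn gave 11 to 22, with 10 of the 15 called in every such fit. The count was 22 without TLR4-KO replicate 3, and 14 without TLR4-KO replicate 1, of which 11 were among the 15. With low values filtered out 31 of 285 were called, and with values of 0 set to the lowest of the library 3 of 589. Without replicate 1 of every group 26 were called, and 24 with replicate number as a block.

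**Figure D1:**
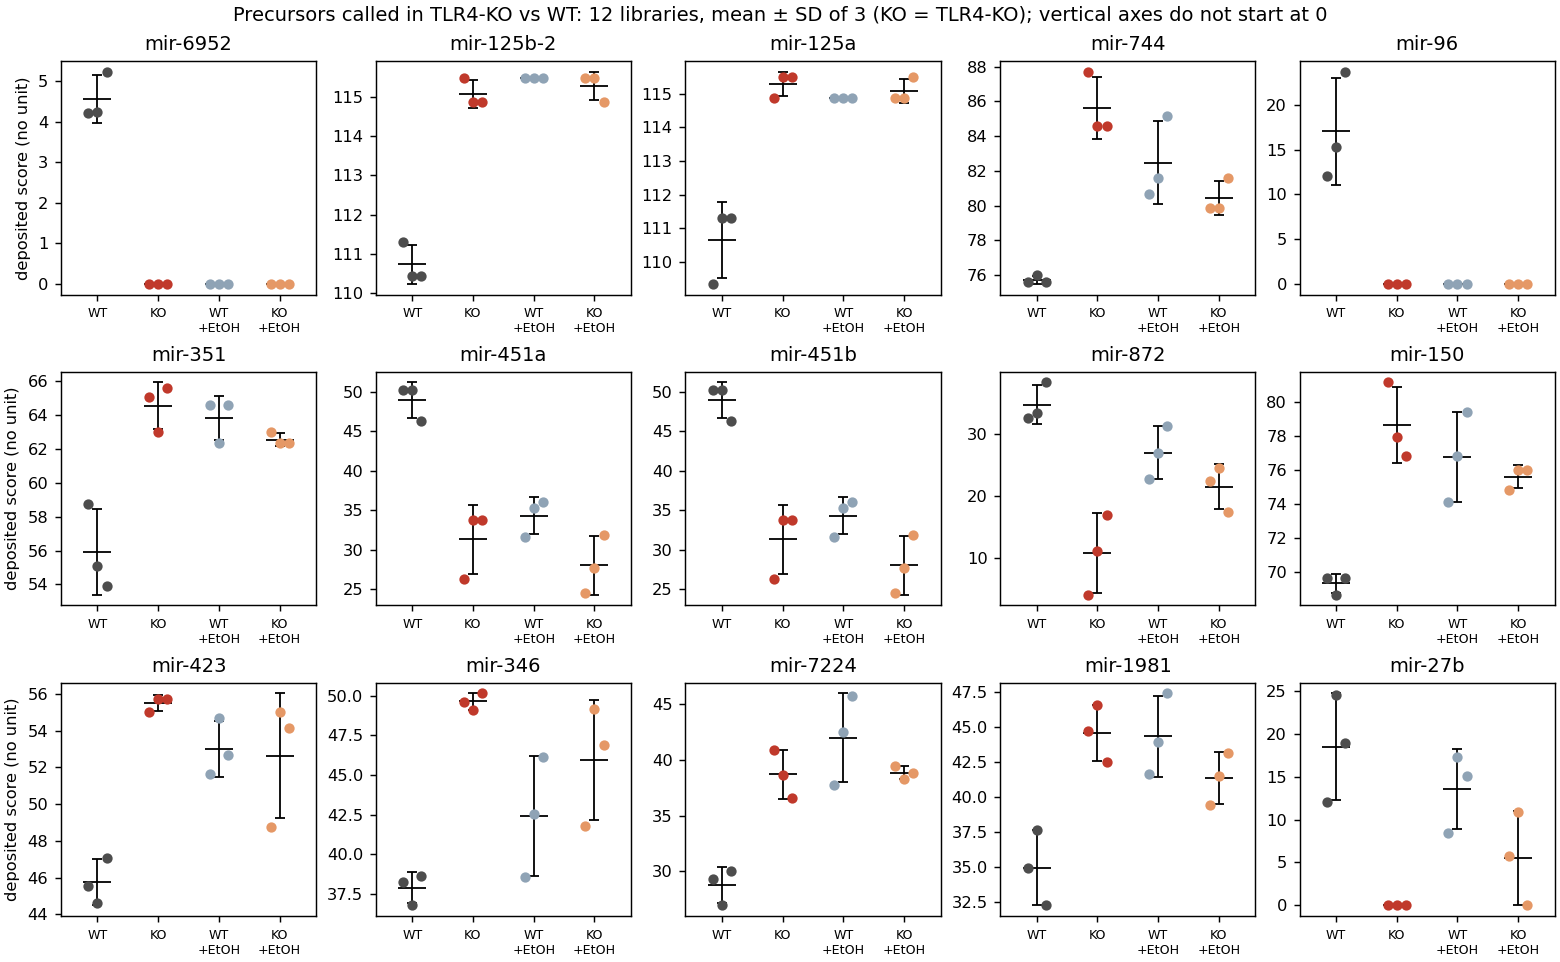
Deposited score (vertical axis, no unit) of the 15 precursors called in TLR4-KO vs WT in each of the 12 libraries, by group, with points for libraries and bars for the mean ± SD of 3. In 13 of the 15 panels the 3 WT points lie outside the range of the other 9, and mir-346 and mir-27b are the exceptions.

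The miR-125 family gave 3 of the 9 rises. mir-125b-2 stood at 111.3, 110.4 and 110.4 in WT and at 115.5, 114.9 and 114.9 in TLR4-KO. It rose by 4.36 ± 0.285 (SE; limma adjusted p = 6.69e-05), and its 3 TLR4-KO libraries lay above every WT library. mir-125a was at 109.3, 111.3 and 111.3 in WT and at 114.9, 115.5 and 115.5 in TLR4-KO, a rise of 4.64 ± 0.497 (SE; limma adjusted p = 0.00215). The scores mark a change of rank: in WT mir-125b-2 held places 5 to 6 and mir-125a places 5 to 7 of the library, and in TLR4-KO the pair held places 3 and 4. mir-351, a rodent member of the family on the X chromosome, stood far lower, at 58.8, 55.1 and 53.9 in WT and at 65.1, 63.0 and 65.6 in TLR4-KO, and it rose by 8.65 ± 1.27 (SE; limma adjusted p = 0.00948). The remaining member, mir-125b-1, gave 106.4, 106.4 and 102.3 in WT and 110.4, 109.3 and 109.3 in TLR4-KO, without overlap but short of the threshold (difference 4.67 ± 2.12 SE, limma adjusted p = 0.438). Thus 3 of 4 members were called higher, beside 9 of the 302 detected precursors. All 4 had a difference above 0, beside 153 of the 302, with a median difference of 4.66 beside 0.185 over all 302 detected precursors. mir-125b-1 and mir-125b-2 give the same 5p arm, whose reads cannot be assigned to either precursor. The fit of the 6 libraries alone ended the calls of mir-125a and mir-351, and mir-125b-2 alone of the family stayed called. Centring each library on miR-181 ended the call of mir-125a, the GC correction described further on that of mir-351, and values of 0 set to the lowest of the library those of all 3. The direction was kept in each. The last setting left the scores of these 3 precursors as they were, since they are above 0 in every library. In it 384 of 589 precursors had an unadjusted p under 0.05, beside 72 in the main fit.

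The mature sequences of the 5p arms show what these 3 precursors have in common. They are printed 5′ to 3′ from RefSeq (GRCm38.p6) with the seed in capitals, and the 3 share 1 seed.
miR-125a-5p: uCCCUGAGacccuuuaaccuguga
miR-125b-5p: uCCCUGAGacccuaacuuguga
miR-351-5p: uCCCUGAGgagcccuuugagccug

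In the genome the family is scattered. On GRCm38, mir-125a lies at chr17:17830812-17830879 on the plus strand, in an exon of Spaca6 by the GENCODE M21 annotation, beside let-7e. Its neighbour let-7e did not move with it (difference -1.15 ± 2.57 SE, limma adjusted p = 1). The 5p arm of mir-125b-2 is at chr16:77646279-77646300 on the plus strand, in an intron of the non-coding gene Mir99ahg. The 5p arm of mir-351 is at chrX:53053315-53053338 on the minus strand, within the cluster of mir-322, mir-503, mir-542 and mir-450b, of which only mir-322 was detected (difference -6.58 ± 7.51 SE, limma adjusted p = 1).

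The places that the miR-125 family took were those of miR-26a. mir-26a-1 stood at 115.5 and mir-26a-2 at 114.9 in each WT library, which are the places 3 and 4. In TLR4-KO mir-26a-1 was at 102.3, 111.3 and 111.3 and mir-26a-2 at 101.4, 110.4 and 110.4. Neither passed the threshold (differences -7.19 ± 2.34 and -7.46 ± 2.55 SE, limma adjusted p = 0.187 and 0.217), and TLR4-KO replicate 1 was the lowest library for both. mir-26b, which shares their seed region, gave 62.3, 62.3 and 62.0 in WT and 45.4, 50.0 and 55.3 in TLR4-KO (difference -12.0 ± 2.83 SE, limma adjusted p = 0.0709). All 3 members of the family had libraries without overlap, TLR4-KO below WT, as did 50 of the 302 detected precursors, and a median difference of -7.46, and none was called.

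The other 6 rises were of precursors without a common seed. mir-744 was at 75.6, 76.0 and 75.6 in WT and at 87.7, 84.6 and 84.6 in TLR4-KO, a rise of 9.90 ± 1.26 (SE; limma adjusted p = 0.00604). mir-150, a miRNA of mature lymphocytes, was at 69.7, 68.7 and 69.7 in WT and at 81.1, 78.0 and 76.8 in TLR4-KO, a rise of 9.28 ± 1.43 (SE; limma adjusted p = 0.00958). In both, each TLR4-KO library lay above every WT library by more than the spread within either group, and in the fit of the 6 libraries alone mir-744 stayed called and mir-150 did not. mir-423, a widely expressed miRNA, went from 45.6, 44.6 and 47.1 to 55.0, 55.7 and 55.7 (rise of 9.73 ± 1.58 SE, limma adjusted p = 0.0126). mir-346, which lies in an intron of Grid1, the gene of the glutamate receptor delta-1 subunit, went from 38.3, 36.8 and 38.6 to 49.6, 49.1 and 50.2, the highest rise of the 15 (11.7 ± 2.19 SE, limma adjusted p = 0.0292). In both the TLR4-KO libraries lay above all WT libraries.

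mir-7224 was at 29.3, 27.0 and 30.1 in WT and at 40.9, 38.6 and 36.5 in TLR4-KO (rise of 9.90 ± 1.95 SE, limma adjusted p = 0.0384). mir-1981 was at 34.9, 37.7 and 32.3 in WT and at 44.7, 46.6 and 42.5 in TLR4-KO (rise of 9.64 ± 1.94 SE, limma adjusted p = 0.0406). For both precursors the TLR4-KO libraries lay above all WT libraries. The calls of mir-346, mir-7224 and mir-1981 were lost in 8, 9 and 8 of the 12 fits without 1 library, with adjusted p up to 0.1003, 0.124 and 0.164, and that of mir-423 in 3 with an adjusted p up to 0.0605.

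Most of these precursors lie inside genes. By GENCODE M21 on GRCm38, mir-744 is in an intron of Map2k4 (chr11:65734733-65734832, minus strand), a kinase gene of the JNK pathway. mir-423 is in an intron of Nsrp1 (chr11:77078064-77078172, minus strand), mir-346 in Grid1 (chr14:34894609-34894706, plus strand), mir-7224 in an intron of B3galt1 (chr2:67675457-67675516, plus strand) and mir-1981 in an intron of Marc2 (chr1:184822407-184822488, minus strand). For mir-150 the 3p arm at chr7:45121798-45121819 has no host gene in the annotation. The arms available for these 6 precursors are shown because their base composition is taken up again further on; the seed is in capitals.
miR-744-5p: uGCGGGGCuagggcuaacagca
miR-744-3p: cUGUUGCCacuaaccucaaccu
miR-150-3p: cUGGUACAggccugggggauag
miR-423-5p: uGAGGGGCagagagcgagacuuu
miR-423-3p: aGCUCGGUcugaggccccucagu
miR-346-5p: uGUCUGCCcgagugccugccucu
miR-346-3p: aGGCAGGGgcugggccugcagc
miR-7224-5p: gGGUAGGCcccucagugaaga
miR-1981-5p: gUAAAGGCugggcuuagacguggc
miR-1981-3p: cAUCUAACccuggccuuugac

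Among the falls, mir-451a, the miRNA of developing red blood cells, was at 50.2, 50.2 and 46.3 in WT and at 26.3, 33.8 and 33.8 in TLR4-KO. It fell by 17.6 ± 2.63 (SE; limma adjusted p = 0.00948), and no TLR4-KO library reached a WT library. mir-451b had the same score as mir-451a in every library. Both lie at chr11:78073170-78073241 on opposite strands, so they are 1 measurement and not 2. Counted once, the erythroid list held 4 precursors with a median difference of -1.82. Of these 1 was called lower and none higher, beside 6 and 9 of the 302 detected precursors. mir-144, which is cut from the same primary transcript as mir-451a, was at 4.20, 8.17 and 0 in WT and at 0 in the TLR4-KO libraries (difference -4.13 ± 4.04 SE, limma adjusted p = 1). mir-486a, also of red cells and the most abundant of the list, was close to level (difference 0.486 ± 1.71 SE, limma adjusted p = 1), and mir-486b gave a value in the other direction (8.76 ± 2.53 SE, limma adjusted p = 0.139). With miR-451 counted once the summed erythroid score was 254.6, 255.8 and 240.9 in WT and 231.4, 238.5 and 243.9 in TLR4-KO, with overlap. The call of mir-451a was lost in the fit of the 6 libraries alone. In such tissue pieces fewer cells of a type and less RNA per cell cannot be told apart, and the part of residual blood in the fall of mir-451a was not tested.

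mir-96 was at 12.1, 15.3 and 23.7 in WT and listed at 0 in the 3 TLR4-KO libraries, a fall of 17.0 ± 2.41 (SE; limma adjusted p = 0.00948). It is doubtful that the zeros of mir-96 in TLR4-KO stand for an absence of reads, so this fall holds for the scores only, and its call was lost in the fit of the 6 libraries alone. mir-96 is cut with mir-183 and mir-182 from 1 cluster that is known from sensory neurons, at chr6:30165918-30169737 on the minus strand. mir-182 gave 90.3, 109.3 and 107.8 in WT and 64.6, 71.5 and 62.0 in TLR4-KO, the largest difference of all precursors (-36.5 ± 10.1 SE), yet its limma adjusted p was 0.131. mir-183 gave 74.8, 87.7 and 82.4 in WT and 50.2, 56.1 and 45.6 in TLR4-KO (-31.0 ± 9.82 SE, limma adjusted p = 0.170). For both the TLR4-KO libraries lay below all WT libraries. The spread that entered these tests was shared by the 4 groups, and the SD of mir-182 was 21.7 in WT + EtOH beside 10.6 in WT and 4.92 in TLR4-KO. The epithelial miR-200 family was low: mir-200b gave 12.1, 27.7 and 27.5 in WT and 5.23, 15.3 and 0 in TLR4-KO (-15.6 ± 4.75 SE, limma adjusted p = 0.163), and mir-200a a difference of -13.4 ± 4.68 SE (limma adjusted p = 0.230). Of the 6 detected members of the miR-183 cluster and the miR-200 family, 1 was called lower, beside 6 of the 302 detected precursors, and 5 were lower at an unadjusted p under 0.05, beside 37 of the 302. All 6 had a difference below 0, with a median of -16.3 beside 0.185 over the 302 detected precursors.

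The cluster is shown by its 5p arms with the seed in capitals, since the seeds of the 3 precursors are alike but not the same.
miR-96-5p: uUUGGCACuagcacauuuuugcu
miR-182-5p: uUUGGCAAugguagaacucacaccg
miR-183-5p: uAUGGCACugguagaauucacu

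mir-872 fell the furthest of the called precursors, from 32.5, 33.2 and 38.2 in WT to 4.20, 11.3 and 17.0 in TLR4-KO (fall by 23.8 ± 3.62 SE, limma adjusted p = 0.00948). Its TLR4-KO scores were among the lowest of each library, where 13, 15 and 17 other precursors had the same score and 0, 0 and 3 detected ones lay below, so their spread is that of the lowest levels. The call was lost in the fit of the 6 libraries alone. mir-872 lies in an intron of Ift74, a gene of transport in cilia (chr4:94665157-94665237, plus strand). mir-27b was at 12.1, 24.5 and 19.0 in WT and listed at 0 in all TLR4-KO libraries (fall by 18.5 ± 3.80 SE, limma adjusted p = 0.0435). Its call was lost in 8 of the 12 fits without 1 library, with adjusted p up to 0.167. It was also lost with quantile normalization, with trend variance and with 1 common value for 0. The partners of mir-27b in its cluster, mir-23b and mir-24-1, were at 0 in all 6 libraries, as was mir-27a, which has the same 3p seed. mir-6952 had the smallest p of all precursors and the lowest level of the 15, at 4.20, 4.23 and 5.23 in WT and 0 in the other 9 libraries (fall by 4.56 ± 0.234 SE, limma adjusted p = 1.85e-05). In the 3 WT libraries 28, 14 and 24 other precursors had exactly that score, and at most 1 detected precursor lay below it, so this smallest p rests on the step between 0 and the lowest scores. Replacing each 0 by the lowest value of its library turned the difference of mir-6952 to 5.29 and left 3 precursors called, mir-451a, mir-451b and mir-872, all lower. Not printed are the arm of mir-451b, which had the highest GC share of the falls (57.1%), and the 3p arm of mir-96. For mir-6952 there was no sequence. The arms of mir-451a, mir-872 and mir-27b are shown for comparison with those of the precursors that rose, seed in capitals.
miR-451a: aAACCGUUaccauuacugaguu
miR-872-5p: aAGGUUACuuguuaguucagg
miR-872-3p: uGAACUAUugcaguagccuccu
miR-27b-5p: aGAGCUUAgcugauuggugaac
miR-27b-3p: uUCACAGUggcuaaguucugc

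The next 10 precursors by p held 6 with higher and 4 with lower values, none past the threshold. mir-3102 was at 14.7, 11.8 and 15.2 in WT and at 0 in all TLR4-KO libraries (difference -13.9 ± 2.99 SE, limma adjusted p = 0.0540). Its TLR4-KO libraries also lay below the 6 alcohol libraries, which ranged from 5.63 to 20.8. This was so for 3 further precursors, which were picked out after their values were seen: mir-872 and mir-338 lay lowest in TLR4-KO, and mir-666 highest, at 52.7, 47.1 and 47.4 beside 37.4 to 46.7 in the other 9 libraries. mir-338, which is abundant in oligodendrocytes, gave 29.2, 36.5 and 35.5 in TLR4-KO and 39.3, 38.5 and 40.4 in WT (difference -5.64 ± 3.10 SE, limma adjusted p = 0.554). The higher values among the 10 were those of mir-181c, mir-485, mir-666, mir-128-1, mir-664 and let-7b, with differences of 4.51 to 9.56. The lower ones beside mir-3102 were mir-3071 (-11.9), mir-26b (-12.0) and mir-335 (-18.2), and limma adjusted p values ran from 0.0540 to 0.0905 over the 10.

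The largest differences above 0 were mostly those of low precursors with a wide spread. mir-412 of the Dlk1-Dio3 cluster had the largest, with 4.20, 8.17 and 15.2 in WT and 23.5, 27.7 and 31.4 in TLR4-KO, without overlap (18.3 ± 7.74 SE, limma adjusted p = 0.379). mir-696 was at 0 in WT and at 0, 23.2 and 17.0 in TLR4-KO (13.4 ± 7.08 SE, limma adjusted p = 0.532). mir-17 was at 16.03, 26.7 and 0 in WT and at 31.9, 26.1 and 21.8 in TLR4-KO, with overlap (12.4 ± 8.21 SE, limma adjusted p = 0.756). Among the highest precursors, mir-191 was close to level (2.06 ± 1.85 SE, limma adjusted p = 0.973).

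miRNAs tied to TLR and NF-kB signalling did not move in 1 direction. Of 14 detected members, 2 were called higher, mir-125a and mir-125b-2, and none lower, beside 9 and 6 of the 302 detected precursors. The median difference of the members was -1.17. At an unadjusted p under 0.05 there were 2 members higher and 5 lower, beside 35 and 37 of the 302 detected precursors, and the libraries did not overlap for 4 higher and 4 lower, beside 42 and 50 of the 302. mir-146a, an NF-kB target that restrains the receptor's adaptors IRAK1 and TRAF6, gave 46.4, 46.4 and 48.6 in WT and 29.6, 36.8 and 39.1 in TLR4-KO. The libraries did not overlap, but the difference of -12.0 ± 4.10 SE did not pass the threshold (limma adjusted p = 0.217). mir-21a gave 50.6, 49.5 and 49.8 in WT and 39.6, 32.1 and 50.2 in TLR4-KO, with overlap (limma adjusted p = 0.396). mir-155, which macrophages induce on TLR ligation, was at 0 in WT and at 4.20, 17.8 and 0 in TLR4-KO, so it was detected in 2 libraries and its limma adjusted p was 0.520. let-7i, whose known targets include Tlr4 itself, was at 74.1, 69.7 and 71.5 in WT and at 91.0, 73.9 and 73.9 in TLR4-KO, with the overlap due to TLR4-KO replicates 2 and 3 (limma adjusted p = 0.671). The 3 miR-9 precursors, which give the same mature arms, lay between 93.4 and 94.6 in WT and between 85.2 and 90.1 in TLR4-KO, with differences of -5.50 to -6.05 and limma adjusted p values of 0.140 to 0.170.

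**Figure D2:**
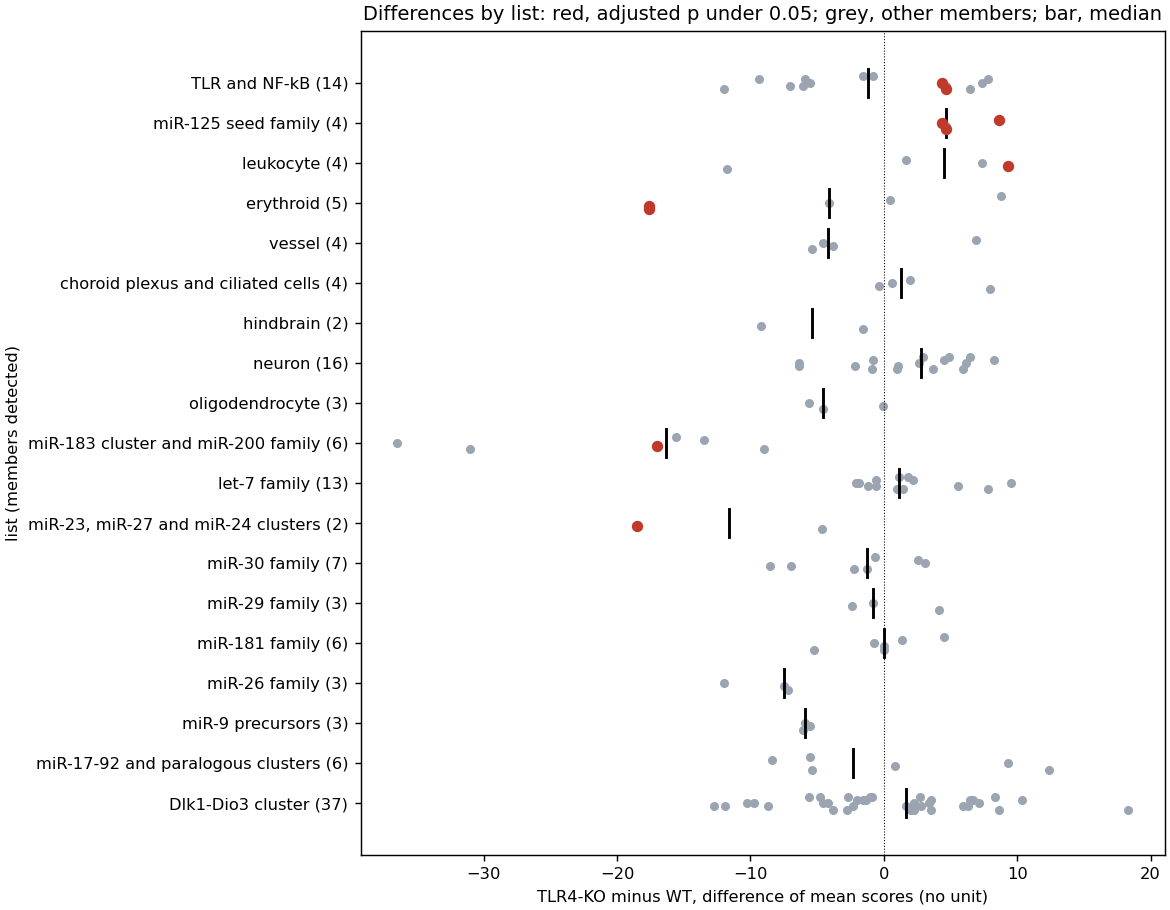
Difference of mean scores, TLR4-KO minus WT (horizontal axis, no unit), of the detected members of each list of precursors (vertical axis), with called members in red, others in grey and the median as a bar. The miR-183 cluster and miR-200 family has the lowest median (-16.3), and the miR-125 seed family has 3 of its 4 members called higher.

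The markers of cell types gave few calls. The cortex itself was marked by 16 neuronal precursors, all detected, of which none was called (2 with an unadjusted p under 0.05 higher, 1 lower; median difference 2.78). mir-138-1 was the most abundant of these, and the 3 precursors of miR-124, a miRNA typical of neurons, had low scores of 27.3 to 44.7 in the 6 libraries. The summed neuronal score was 768.7, 776.2 and 798.7 in WT and 801.3, 820.1 and 815.1 in TLR4-KO, where each sum lay above all WT sums. Of the 16 members 11 had a difference above 0, and the libraries did not overlap for 5 higher and 2 lower, beside 42 and 50 of the 302 detected precursors. Of the oligodendrocyte precursors 3 of 4 were detected and none was called, with a median of -4.56. Their summed scores were 76.6, 73.3 and 70.1 in WT and 67.7, 71.8 and 49.6 in TLR4-KO. All 3 had a difference below 0, and 2 had libraries without overlap, beside 50 lower of the 302 detected precursors. mir-338 was the most abundant, and mir-219a-1 was at 0 in the 6 libraries. mir-219a-2 was above 0 in all 3 WT libraries, at most at 5.23, and at 0 in TLR4-KO. Of the leukocyte precursors 4 of 6 were detected and mir-150 alone was called, beside 9 of the 302 detected precursors called higher. mir-142a, which all blood-derived leukocytes carry, gave 44.2, 45.9 and 42.7 in WT and 28.2, 30.7 and 38.5 in TLR4-KO, opposite in sign to mir-150 (-11.8 ± 6.22 SE, limma adjusted p = 0.532), and mir-223 of neutrophils was at 0 in all 6 libraries. The summed leukocyte score was 140.9, 136.0 and 129.9 in WT and 131.3, 151.9 and 143.1 in TLR4-KO, with mir-150 the most abundant. The part of leukocytes in the rise of mir-150 was not tested.

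Vessel markers gave 4 detected members of 5, none called, with a median of -4.17. mir-143 and mir-145a, which smooth muscle makes from 1 transcript, went apart: mir-143 gave a difference of -4.53 ± 1.41 SE and mir-145a one of 6.91 ± 2.27 SE (limma adjusted p = 0.169 and 0.192). The 4 detected precursors of choroid plexus and ciliated cells had a median of 1.28 and none was called. Of these 3 had a difference above 0 and 1 below. mir-204 of the choroid plexus gave 0.623 ± 3.06 SE. mir-34b gave 7.96 ± 3.43 SE (limma adjusted p = 0.395), above 0 in 2 TLR4-KO libraries and in no WT library. mir-449a and mir-449c of ciliated cells were at 0. The 2 hindbrain precursors, mir-10a and mir-10b, gave -1.56 and -9.21 without a call. The 3 listed muscle precursors in the table were at 0 in every library.

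Most other families gave no call. The let-7 family had 13 detected members, a median of 1.15 and none called. The miR-30 family (7 detected, median -1.24), the miR-29 family (3, median -0.797), the miR-181 family (6, median 0), the miR-26 family (3), the miR-9 precursors (3, median -5.90) and the miR-17-92 and paralogous clusters (6, median -2.27) gave none either. In the miR-23, miR-27 and miR-24 clusters mir-27b was the 1 call among 2 detected members, beside 6 of the 302 detected precursors called lower. The imprinted Dlk1-Dio3 cluster, the largest list with 37 detected members, was split evenly, with 19 differences above 0 and 18 below, a median of 1.66 and none called. Within it mir-3071 and mir-136, which lie on opposite strands at Rtl1, gave -11.9 and -10.3, while mir-485 and mir-666 gave 8.35 and 8.60.

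Base composition went with the genotype difference. The GC share of the mature arms, averaged over the arms of a precursor, was available for 254 of the 302 detected precursors (84.1%). Over these the GC share and the difference TLR4-KO minus WT had a Pearson r of 0.387 and a Spearman rho of 0.417, and over the 168 of 190 precursors above 0 in all libraries r was 0.484 and rho 0.543. With the GC share of the hairpin the relation was weaker, with r of 0.283 and rho of 0.287 over 158 of those 190, and over the 302 that check is void, since 78.5% had a hairpin sequence. These are descriptions across precursors, which share the same libraries and are not independent. Among the 72 precursors with the lowest GC share (30.2 to 43.2%) the median difference was -4.15, with 51 of 72 below 0. Among the 60 with the highest (57.6 to 85.7%) it was 4.599, with 45 of 60 above 0. The 9 precursors that rose had a GC share of 50.0 to 71.2% (median 60.9%), and the 5 that fell and had a sequence 36.4 to 57.1% (median 41.8%), the highest being mir-451b, whose score was that of mir-451a. Over the same 168 precursors the score was lower at a higher GC share in each library, with r of -0.305, -0.284 and -0.279 in the 3 WT libraries, -0.121, -0.145 and -0.178 in TLR4-KO and -0.204 to -0.149 in the 6 alcohol libraries. The genotype difference under alcohol showed no such relation (r = -0.0696 and rho = -0.0822 over the same 254). With each library's slope on the GC share brought to the mean slope, a setting chosen after seeing the data, 9 of 477 precursors were called, 4 higher and 5 lower, of which 6 were among the 15 (mir-125a, mir-125b-2, mir-744, mir-451b, mir-872 and mir-96). The other 3 were mir-3102 and the precursors mir-181a-1 and mir-181a-2, whose scores were the same in every library before the correction, so their differences come from the correction itself. In the same way mir-451b stayed called and mir-451a did not, though their scores are equal, only because their arms have GC shares of 57.1 and 36.4%. mir-6952 had no sequence and was not tested. Without that correction the same 477 gave 19 calls, 12 higher and 7 lower. mir-351, mir-150, mir-423, mir-346, mir-7224, mir-1981, mir-27b and mir-451a were no longer called. The part of base composition in each single difference was not tested.

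**Figure D3:**
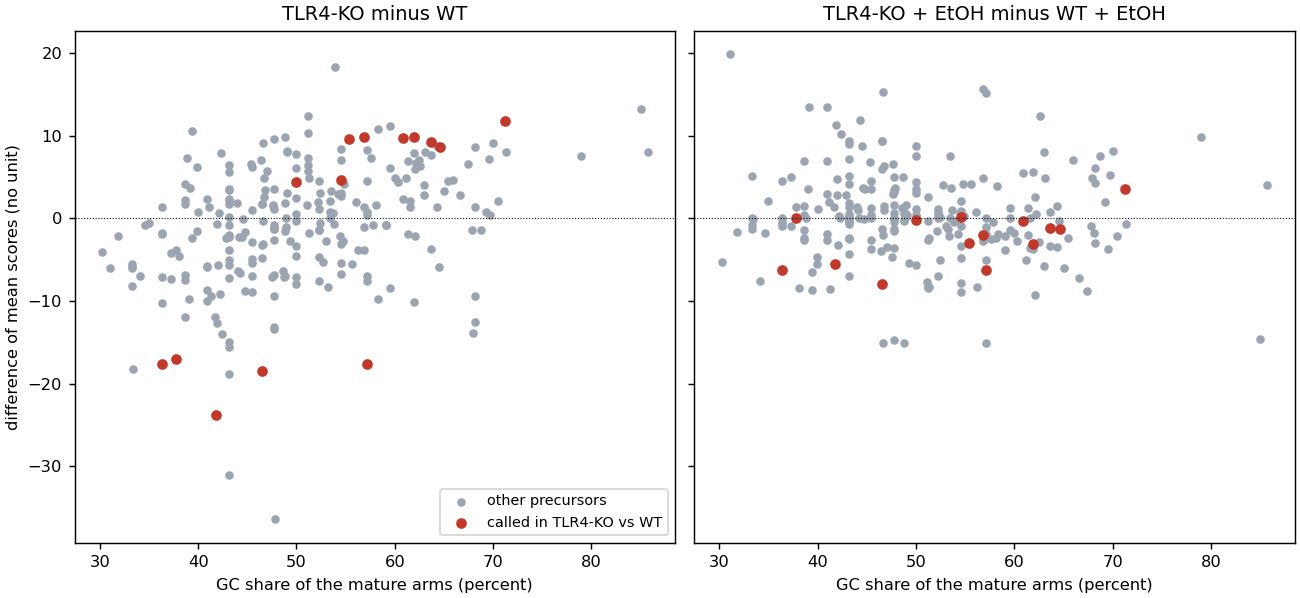
Difference of mean scores (vertical axis, no unit) against the GC share of the mature arms (horizontal axis, percent) for 254 precursors, without alcohol on the left and with alcohol on the right. Red points are precursors called in TLR4-KO vs WT, and Pearson's r is 0.387 on the left and -0.0696 on the right.

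Under alcohol the genotypes differed in fewer precursors. TLR4-KO + EtOH against WT + EtOH, which shares no library with the comparison without alcohol, gave 3 calls among 589 (0.509%), 2 higher (0.340%) and 1 lower (0.170%), and 27 precursors (4.58%) with an unadjusted p under 0.05, 16 higher (2.72%) and 11 lower (1.87%). None of the 3, mir-3087, mir-344d-3 and mir-299a, was called without alcohol. The calls did not hold in all fits: there were 0 with the 2 alcohol groups alone and with centring on miR-181, and 0 to 3 with 1 library left out. The libraries of 29 precursors (4.92%) did not overlap, 14 higher (2.38%) and 15 lower (2.55%). Over the 324 precursors above 0 in any library the differences of the 2 comparisons had a Pearson r of -0.103 and a Spearman rho of -0.116, as a description across precursors. The SD of the differences was 6.95 without alcohol and 4.97 with it.

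**Figure D4:**
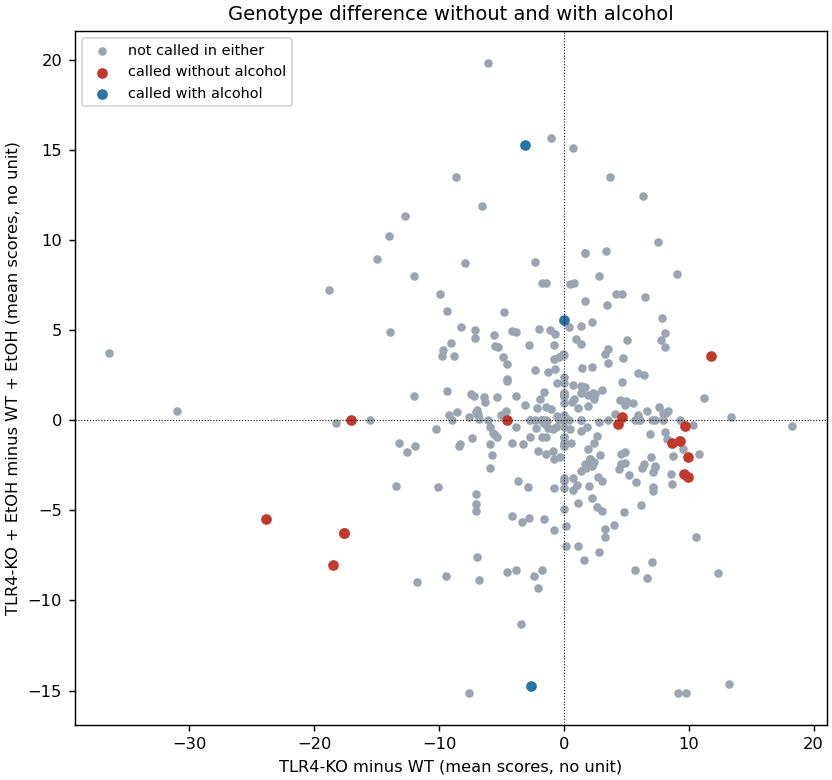
Difference of mean scores between the genotypes without alcohol (horizontal axis, no unit) and with alcohol (vertical axis, no unit) for 324 precursors. Red points were called without alcohol and blue points with alcohol, and the red points spread along the horizontal axis while most stay near 0 on the vertical one.

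The change of the genotype difference with alcohol was tested itself and was called in 7 precursors (1.19%), 3 higher (0.509%) and 4 lower (0.679%), with 74 (12.6%) at an unadjusted p under 0.05, 40 higher (6.79%) and 34 lower (5.77%). With replicate number as a block 3 were called, and with values of 0 set to the lowest of the library 0. Leaving out 1 library gave 2 to 15. mir-125a, mir-125b-2, mir-351, mir-744 and mir-6952 were among the 7. For mir-744 the genotype difference was 9.90 without and -2.03 ± 1.26 (SE) with alcohol, where WT + EtOH libraries were at 80.6, 81.6 and 85.2 and TLR4-KO + EtOH libraries at 79.9, 79.9 and 81.6. For mir-125b-2 it was 4.36 without and -0.207 ± 0.285 (SE) with alcohol, and all 6 alcohol libraries stood at 114.9 or 115.5. mir-451a kept the direction, with -6.27 ± 2.63 (SE; limma adjusted p = 1) under alcohol, and its change with alcohol was not called (limma adjusted p = 0.263). For mir-872 the differences were -23.8 and -5.49, and for mir-27b -18.5 and -8.01, and neither change passed the threshold (limma adjusted p = 0.172 and 0.557).

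More precursors had a score above 0 in WT. Precursors above 0 numbered 270, 260 and 260 in the WT libraries and 262, 229 and 216 in the TLR4-KO libraries. They numbered 270, 233 and 229 in WT + EtOH and 262, 247 and 236 in TLR4-KO + EtOH. In each group replicate 1 had the most. At least 1 library was above 0 for 286 precursors in WT and for 265 in TLR4-KO, 249 of them in both. Of the 37 with a score above 0 in WT alone, 9 were above 0 in all 3 WT libraries, 13 in 2 and 15 in 1. The 9 were mir-96, mir-27b, mir-3102, mir-3083, mir-375, mir-219a-2, mir-467a-9, mir-5100 and mir-6952, of which mir-96 and mir-6952 were also at 0 in the 6 alcohol libraries. Of the 16 with a score above 0 in TLR4-KO alone, 2 were above 0 in all 3 libraries, mir-5122 (5.23, 15.3 and 19.2) and mir-3473d (4.20, 11.3 and 17.0). The scores of mir-3473d were those printed for mir-872 in the same libraries, which are among the lowest above 0 there. Their steps are thus those of the lowest levels. mir-5122 was also above 0 in all 3 WT + EtOH libraries and at 0 in TLR4-KO + EtOH, with genotype differences of 13.2 ± 3.77 (SE; limma adjusted p = 0.138) and -14.6 ± 3.77 (SE; limma adjusted p = 0.279). A precursor at 0 in these libraries was listed at 0 and cannot be called absent, and the part of depth and of the normalisation in the lower numbers of TLR4-KO replicates 2 and 3 was not tested.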

How the data were processed

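Small RNA of mouse cortex was sequenced in 12 libraries of 4 groups. By the submitters' notes, the authors used FastQC 0.11.6, cutadapt, Bowtie2 2.2.5 and TopHat with GRCm38. The deposited values are scores normalised between libraries; the methods name the trimmed mean of M values, and the highest 14 scores are equal in every library. They are not counts, so no count model was run, and the table gives no depth. limma 3.58.1 in R 4.3.3 was fitted to the scores of all 12 libraries with 1 mean per group and no covariate, with Benjamini-Hochberg adjustment over 589 precursors (prior degrees of freedom 0.308, total 8.31). Exact permutation tests, correlations and counts were made in Python 3.11.15 with scipy 1.17.1. The fit was tested on simulated data of 589 precursors in 20 runs. It called 44.2% of 30 changes of 3 SD and 99.5% of 30 changes of 6 SD, with 0 to 4 false calls a run. These rates hold for the simulated data only. How many calls in the deposited scores are false was not tested, since the true changes are known only in simulated data. Of the precursors, 480 matched RefSeq by symbol and 477 had a mature sequence. Followed through the alternatives were all called precursors, the next 10 by p, the 5 largest differences each way, precursors sharing a seed or cluster (gaps up to 10 kb) with a called one, 3 per list and the 10 highest. The members and lists were chosen with earlier results of these data known. Alternatives were normalisation, filtering, values at 0, the samples fitted, replicate number as a block, robust and trend variance, merged copies and omitted libraries; a common value for 0 and GC correction were added after seeing the data.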

Additional observations from a re-analysis of the deposited data

Results flagged for a closer look

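The genotype difference changed with alcohol in 7 precursors by the limma test of that change (difference under alcohol minus difference without). It was 4.56 for mir-6952, -4.56 for mir-125b-2, -11.9 for mir-744, -4.43 for mir-125a, -9.93 for mir-351, 5.54 for mir-3087 and 18.4 for mir-344d-3, with adjusted p from 0.000305 to 0.0416. In the 5 precursors named first the genotypes differed without alcohol. In mir-3087 and mir-344d-3 they differed with it: mir-3087 was at 4.08, 5.26 and 7.29 in TLR4-KO + EtOH and at 0 in the other 9 libraries, and mir-344d-3 was at 19.4, 18.1 and 10.95 in TLR4-KO + EtOH and at most at 5.23 elsewhere. The levels of mir-6952 and mir-3087 are among the lowest scores above 0. The number of such precursors depended on the fit. It was 3 with replicate number as a block, and 0 when values of 0 were set to the lowest of the library. With 1 library left out it was 2 to 15.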

How the results depend on the processing

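TLR4-KO vs WT had 15 called precursors in the main fit. Quantile normalization, centring on miR-181, median centring, robust or trend variance, merged copies and 1 common value for 0 gave 14 to 16. In each of these, 13 to 15 of the calls were among the 15. The 2 groups alone gave 13, of which only 5 were among the 15. The low-value filter gave 31 (16 higher and 15 lower, all 15 among them), since 285 precursors were tested, and zeros at the lowest value gave 3. The linear GC correction gave 9. Without replicate 1 of every group 26 were called, 10 of them among the 15. With 1 library left out the counts were 11 to 22.

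The replicate numbers were not taken as pairs, since the deviations of same-numbered libraries correlated at 0.0945, -0.0043 and 0.133 between TLR4-KO and WT and at 0.152, 0.0721 and 0.125 under alcohol, not all over 0.1. The change of the genotype effect also sets TLR4-KO + EtOH against TLR4-KO, where all 3 were over 0.1 (0.133, 0.101 and 0.153), and WT + EtOH against WT, where they were -0.109, 0.0539 and 0.124. With the replicate block 24 precursors were called in TLR4-KO vs WT (9 higher and 15 lower, without mir-7224 and mir-1981), 2 in TLR4-KO + EtOH vs WT + EtOH, 3 for the change of the genotype effect and 17 members of lists.

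For TLR4-KO + EtOH vs WT + EtOH (3 called) the count was 1 with quantile normalization and 0 with centring on miR-181, with the 2 groups alone and without replicate 1. Leaving out 1 library gave 0 to 3. For the change of the genotype effect with alcohol (7 called) it was 13 with the low-value filter and 0 with zeros at the lowest value, and 2 to 15 with 1 library left out (15 without WT + EtOH replicate 1, 2 without TLR4-KO + EtOH replicate 2).

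Of the list members 8 were called, and 17 with the low-value filter, 2 with zeros at the lowest value, 5 with the 2 groups alone and 15 without replicate 1, with 7 to 13 when 1 library was left out. Of the differences followed, only that of mir-6952 changed sign, to 5.29 with zeros at the lowest value, by construction. Those of mir-181a-1 and mir-181a-2, both at 0, went to 0.600 and -1.06 with the GC correction. Causes of the other changes were not tested. The deposited scores hold no depth, which limits what a score of 0 can show.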
